A study of Homo sapiens with 6 samples.

Results

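The HOX cluster genes of NCI-H295A cells were followed through treatment with the cyclic AMP analogue 8-Br-cAMP. Members were chosen by gene symbol: every probe set to which the platform annotation gave a single symbol of the form HOXA, HOXB, HOXC or HOXD plus a number. That rule gave 31 probe sets for 24 genes, out of 22215 probe sets analysed. The rule uses no measured value, but the family was selected from results of this same comparison that were already known, so the counts over it are descriptions and support nothing about the family as a whole. The 24 genes were 1 of HOXA (HOXA2), 9 of HOXB, 7 of HOXC and 7 of HOXD. Another 3 probe sets whose annotation names HOX genes together with others were left unnamed, and the remaining HOX genes are not analysed here.

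Treated cells were exposed to 8-Br-cAMP at 1 mM over 18 h and control cells did not receive it, with 3 Affymetrix arrays in each group. The sample labels call the agent cAMP, and the growth protocol names it as 8-Br-cAMP, a form that enters cells and mimics the signal of the pituitary hormone ACTH. NCI-H295A is an established human adrenocortical carcinoma line, so both groups share the genome of 1 tumour. The labels number the samples 1 to 3 in each group and leave unstated whether the plates were separate cultures. The p-values therefore cover only the spread between these arrays, which may be technical.

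HOX genes encode homeodomain transcription factors that give cells their position along the body axis. They lie in 4 clusters, named A to D, and genes that hold the same place in different clusters carry the same paralogue number, from 1 at the end expressed towards the head to 13 at the end expressed towards the tail. Cells keep part of this code in adult tissues and in tumours. HOX proteins bind DNA together with TALE-class homeodomain partners of the PBX, MEIS and PREP groups, and chromatin complexes of the Polycomb and Trithorax groups hold the clusters silent or active. In mouse, a HOX, PBX and PREP complex acts on the fetal adrenal enhancer of Nr5a1, the gene of steroidogenic factor 1.

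In these cells 5 of 6 measurable HOXC genes had lower transcript signals on every 8-Br-cAMP array than on any control array, as did 12.5% of all probe sets measured. HOXC6 and HOXC13, and HOXD4 of the HOXD cluster, lay between 2.37-fold and 2.91-fold below control, and lower in all 3 same-numbered pairs of arrays. With all arrays they passed the test only when same-numbered arrays were paired, a pairing that the labels do not give. HOXC13 and HOXD4 no longer passed when pair 2 or pair 3 was left out. HOXC4, HOXC5 and HOXC11 lay lower in every pair without passing the test, while HOXC10 did not differ beyond its spread. HOXB5 and HOXB6, each on 1 of its 2 kept probe sets, had lower signals in every pair, with the smallest difference in pair 1. The other kept probe set of each gave pair differences of both signs. HOXB2 lay slightly higher on every treated array than on any control array. In such bulk samples fewer cells that carry a transcript and less of it per cell cannot be told apart.

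A start site of the HOXC cluster is shown here because the RefSeq gene table starts the models of HOXC4, HOXC5 and HOXC6 at the same base, the one after the printed window, and all 3 genes had lower signals after treatment. The HOXD4 window is shown beside it because HOXD4 fell as well. Each window holds the 250 bases before the start, written 5′ to 3′ on the plus strand of GRCh38.p14 from RefSeq, at chr12:54016638-54016887 for the shared HOXC start and at chr2:176151300-176151549 for HOXD4. Capitals mark the CCAAT box, CCAAT on either strand, which here reads ATTGG because each match lies on the minus strand.
HOXC4 and HOXC5: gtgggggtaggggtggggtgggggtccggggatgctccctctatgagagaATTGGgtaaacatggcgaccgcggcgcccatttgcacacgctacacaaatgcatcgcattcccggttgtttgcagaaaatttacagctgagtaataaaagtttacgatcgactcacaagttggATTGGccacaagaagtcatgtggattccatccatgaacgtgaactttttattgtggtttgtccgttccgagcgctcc
HOXD4: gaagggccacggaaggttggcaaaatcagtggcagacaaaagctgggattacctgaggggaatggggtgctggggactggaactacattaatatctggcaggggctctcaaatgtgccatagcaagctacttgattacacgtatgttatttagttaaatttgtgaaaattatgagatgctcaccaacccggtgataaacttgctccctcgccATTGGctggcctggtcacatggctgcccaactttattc

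The HOXC window had 2 CCAAT boxes and the HOXD4 window had 1, a motif found in 32% of 34788 RefSeq start windows of the same length. Neither window held the cyclic AMP response element TGACGTCA, found in 1.64% of all windows, or its core TGACG on either strand (CGTCA on the other), found in 21.2%. The MEIS core TGACAG, or CTGTCA on the other strand, was likewise in neither, against 13% of all windows. These counts describe letters in 1 window per start and nothing beyond it. Of the 24 genes, 10 have an entry in the promoter table, and HOXC6 and HOXC13 are among those without one, so the printed window was read from the entries of HOXC4 and HOXC5. Since the gene models of HOXC4, HOXC5 and HOXC6 overlap, how far their probe sets share transcripts was not tested.

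Signals were compared with limma on the log2 scale over all 13329 probe sets whose mean lay above the filter level, a signal of 45.5. Of the HOX probe sets 18 passed this filter, for 14 genes: HOXB2, HOXB5, HOXB6, HOXB7, HOXB9, HOXC4, HOXC5, HOXC6, HOXC10, HOXC11, HOXC13, HOXD1, HOXD4 and HOXD9. With no block, the fit called 0 of the 18, and it called 0% of all 13329 probe sets (adjusted p under 0.05). At an unadjusted p under 0.05 there were 7 of the 18 and 1474 of all. Arrays with the same number deviated together (correlation 0.603, 0.378 and 0.538 for numbers 1, 2 and 3), but numbers 2 and 3 also did so across numbers. Treated array 2 gave 0.547 with control 3, above its value with control 2, and treated array 3 gave 0.312 with control 2. These values set number 1 apart and cannot decide how arrays 2 and 3 pair. The sample number was also fitted as a block, here called the paired fit. The paired fit called 3 of the 18 HOX probe sets, all lower, where 3.21% of all probe sets were called and 1.66% were called lower. Nothing is read about the family from the gap between these shares.

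Arrays numbered 1 stood apart in RNA quality and in the signals of some adrenocortical markers. The ratio of 3′ to 5′ signal of the actin control was 38.8 on 8-Br-cAMP 1 and 5.72 on control 1, and between 1.93 and 2.41 on the other arrays. A degraded or shortened RNA raises this ratio. CYP17A1 had 8027.8, 3562.3 and 3259.5 on 8-Br-cAMP arrays 1, 2 and 3, and 4193.1, 1477.8 and 1475.7 in controls. INHA had 3249.8, 352.2 and 299.5 after 8-Br-cAMP and 975.6, 112.5 and 173.5 in controls. Both were highest on array 1 of each group, whereas NR5A1 was not highest on array 1 of either group. The HOX genes below are therefore given by array or by pair, and the part of RNA quality in the differences was not tested. Of the adrenocortical markers 9 of 9 with a probe set lay above the filter level, NR5A1 and STAR among them. Of the chromaffin markers 1 of 6 did (CHGB), and TH, DBH and PNMT lay below it. Of the fibroblast markers 3 of 7 did, of the endothelial 2 of 5 and of the blood cell markers 2 of 5. The adrenocortical markers summed to 18726.8 to 43859.7 after 8-Br-cAMP and 6356.3 to 22380 in controls. In the paired fit described above 5 of 9 were called higher, beside 207 of all 13329 probe sets. The endothelial markers summed to 304.7 to 419.4 after 8-Br-cAMP and 183.4 to 231.4 in controls, with 1 of the 2 kept called higher (VWF). VWF passed the filter through its treated arrays, and controls 1 and 2 lay below the filter level, so its fold is imprecise. Without VWF, which had 292.3, 224.5 and 289.2 after 8-Br-cAMP and 13.2, 17.8 and 123.8 in controls, the other 4 summed to 75.2 to 127.1 after 8-Br-cAMP and 107.6 to 210.6 in controls. TEK (-2.35) and CDH5 (-1.01) had lower means and lay below the filter level. The part of these markers in the HOX differences was not tested.

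HOXC6, a factor of the thoracic part of the code, had signals of 1073.7, 733.2 and 793.7 on 8-Br-cAMP arrays 1, 2 and 3, against 2852.8, 2166.8 and 2479.4 on control arrays 1, 2 and 3. The groups did not overlap, and every treated array was at less than 1 in 2 of its control. The mean log2 signal was 9.74 ± 0.29 after 8-Br-cAMP and 11.28 ± 0.20 in controls (SD, n = 3 each), a log2 difference of -1.54 (95% interval -1.96 to -1.11, limma paired adjusted p = 0.0144; 0.0993 with no block). The pair differences were -1.41, -1.56 and -1.64, close to each other. HOXC6 passed in 9 of the 10 settings tried with the block, and its difference ran from -1.60 to -1.49 when 1 pair was left out.

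HOXC13, the posterior member needed for hair and nail formation, had signals of 70, 57.1 and 60 on the treated arrays, against 175.7, 155.4 and 189.5 on the control arrays. All treated signals lay close together and well under the lowest control. The log2 difference was -1.48 (95% interval -2.11 to -0.84, limma paired adjusted p = 0.0434; 0.113 with no block), with pair differences of -1.33, -1.44 and -1.66. It passed in 5 of the 9 settings with the block that kept it above the filter. Leaving out pair 2 or pair 3 ended the calls of HOXC13 (adjusted p up to 0.234) and HOXD4 (up to 0.124), and leaving out pair 1 kept both.

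HOXC4 and HOXC5, whose gene models start at the same base as that of HOXC6, had lower signals as well but did not pass. HOXC4 had 179.8, 88 and 117.2 after 8-Br-cAMP and 337.8, 369.4 and 294.9 in controls, a log2 difference of -1.44 (95% interval -2.11 to -0.76, limma paired adjusted p = 0.0507). HOXC5 had 81.3, 47.5 and 26.4 after 8-Br-cAMP and 149.8, 159 and 118.8 in controls, a difference of -1.60 (-2.46 to -0.74, adjusted p = 0.0689). In both genes the groups did not overlap, and pair 1 gave the smallest difference, -0.91 in HOXC4 and -0.88 in HOXC5. The treated signal of HOXC5 on array 3 lay below the filter level, so its fold is imprecise. HOXC4 is given in full after its values were seen, as is HOXC11.

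The remaining HOXC genes lie towards the posterior end of the cluster or next to HOXC6. HOXC11 had 132.8, 87.3 and 77.8 after 8-Br-cAMP and 212.5, 151.7 and 201.3 in controls, without overlap, for a log2 difference of -0.95 (95% interval -1.58 to -0.32, limma paired adjusted p = 0.108). HOXC10, which in mouse helps to specify motor neurons of the lumbar cord, had 377.7, 182.9 and 182.7 after 8-Br-cAMP and 226.8, 288.6 and 232.2 in controls. Treated array 1 was the highest of all 6 and treated arrays 2 and 3 were the lowest. The HOXC10 difference was -0.09 (-0.83 to 0.65, adjusted p = 0.901), and its sign turned to 0.08 after quantile normalization and to 0.14 with a common median. HOXC8, between HOXC6 and HOXC10 in the cluster, lay near the filter level and just below it, at 26.7 to 51.9 after 8-Br-cAMP and 31.7 to 48.2 in controls, and was not tested. Over the 6 HOXC probe sets above the filter level the median pair difference was -0.90, -1.50 and -1.51 in pairs 1, 2 and 3, beside -0.03, -0.18 and -0.15 over all kept probe sets.

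**Figure D1:**
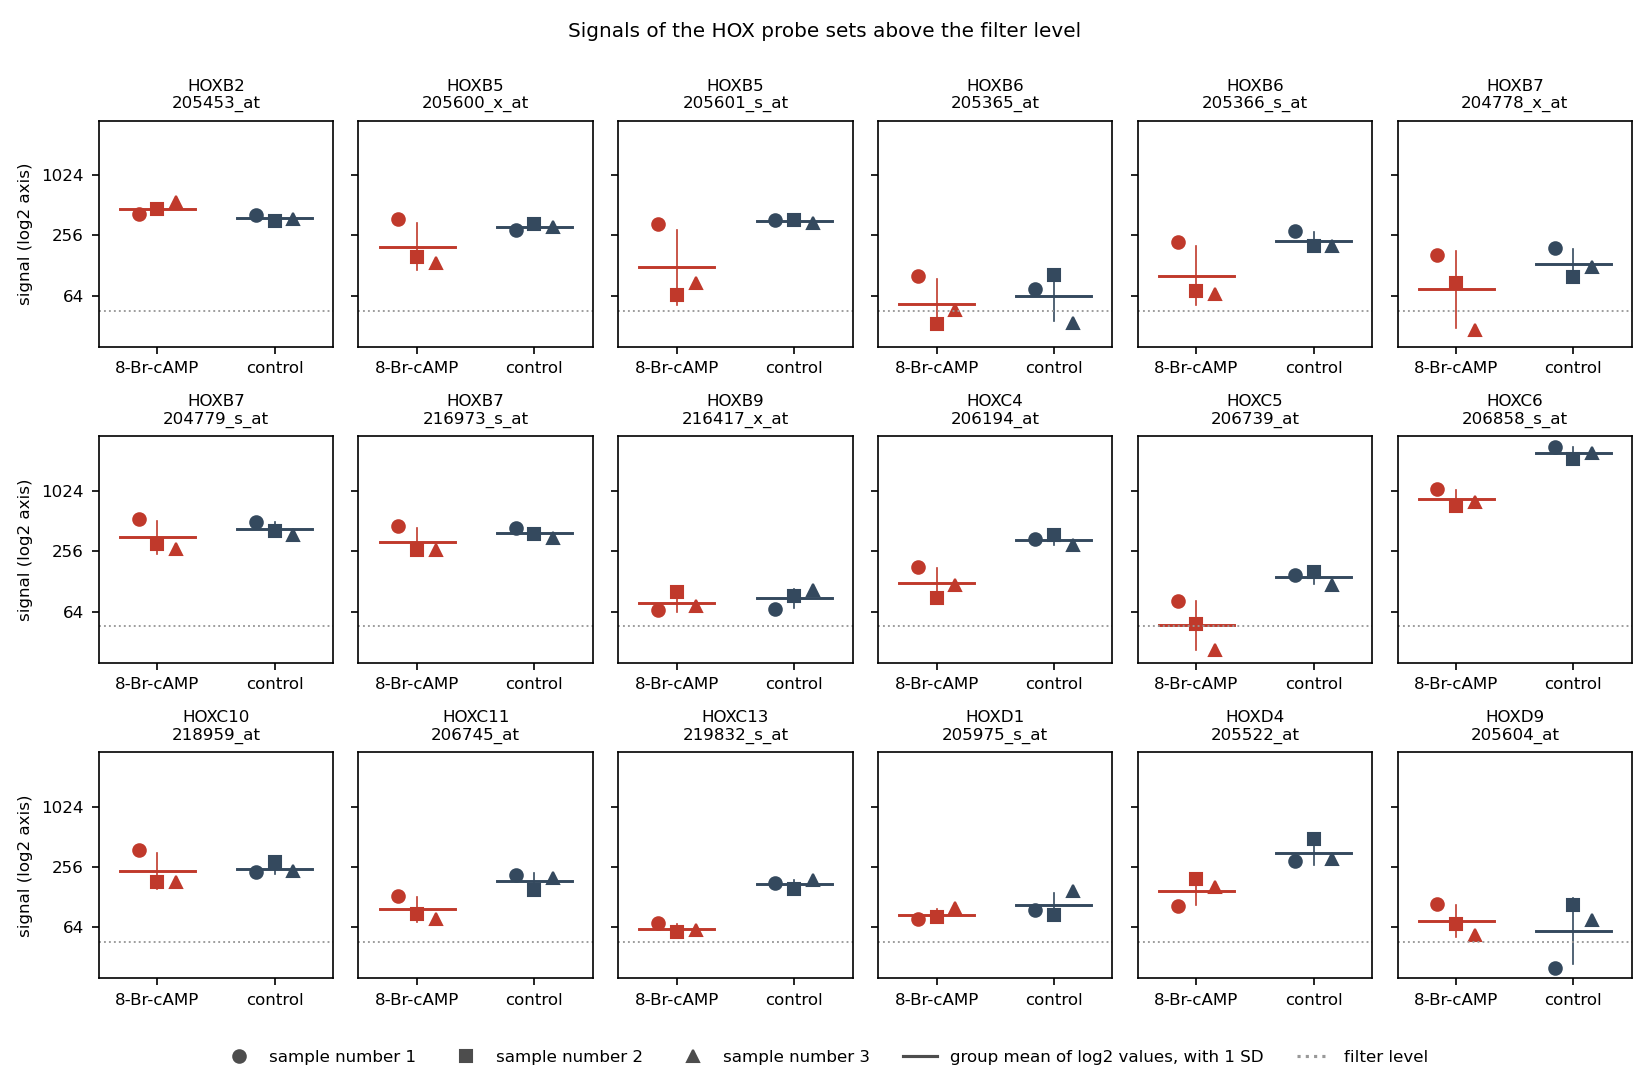
Signals of the 18 HOX probe sets above the filter level, on a log2 axis, with 8-Br-cAMP arrays at the left and control arrays at the right of each panel; marker shapes give the sample number, horizontal lines the mean of the log2 values, vertical lines 1 SD (n = 3), and the dotted line the filter level. HOXC4, HOXC5, HOXC6, HOXC11, HOXC13, HOXD4 and 1 HOXB5 probe set show treated arrays below all controls; levels are not comparable between panels, since each probe set binds its target differently.

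HOXD4, which patterns the hindbrain and neck vertebrae in mouse, passed the paired fit as lower. Of the 7 HOXD genes 3 had a kept probe set, and the other kept ones did not pass. HOXD4 gave the following signals. It had 104.3, 196.3 and 162.5 after 8-Br-cAMP, against 295.1, 487.5 and 308.9 in controls, with no overlap. The log2 difference was -1.25 (95% interval -1.79 to -0.70, limma paired adjusted p = 0.0440; 0.241 with no block), and pair 1 showed the largest of its pair differences (-1.50, then -1.31 and -0.93). The call held in 7 of 10 settings with the block. HOXD1 had 78.3, 81 and 100 after 8-Br-cAMP and 96, 85.7 and 148.1 in controls on its kept probe set, with overlapping groups (difference -0.31, adjusted p = 0.565). HOXD9 had 109.8, 68.7 and 53 after 8-Br-cAMP and 25, 107.3 and 74.9 in controls. Its difference of 0.33 (-1.09 to 1.75, adjusted p = 0.790) came with a pair 1 difference of 2.13 and negative ones of -0.64 and -0.50 in the others, and it became -0.57 with the number 1 arrays left out.

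In the HOXB cluster 0 of 9 kept probe sets passed the paired fit, beside 3.21% of all probe sets, and for several the size of the difference varied between pairs. HOXB5, which acts in neural crest and gut development in mouse, had signals of 332.3, 65.4 and 85.3 after 8-Br-cAMP, against 366.1, 369.6 and 341.2 in controls, on probe set 205601_s_at. Controls were nearly equal, treated arrays 2 and 3 were far lower, and treated array 1 was just under the lowest control. The log2 difference was -1.55 (95% interval -2.62 to -0.48, limma paired adjusted p = 0.120), made of -0.14, -2.50 and -2.0 in pairs 1, 2 and 3. The other HOXB5 probe set, 205600_x_at, whose suffix marks probes that may bind other transcripts, gave 0.36, -1.11 and -1.21.

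HOXB6 likewise had its smallest pair difference in pair 1. On 205366_s_at it had 222, 71.3 and 66.4 after 8-Br-cAMP against 284, 199.2 and 202.8 in controls (pair differences -0.36, -1.48 and -1.61, mean -1.15, limma paired adjusted p = 0.106). Its dimmer probe set 205365_at had 99.8, 33 and 45.6 after 8-Br-cAMP and 75.3, 102.5 and 33.9 in controls, and pair differences of both signs. HOXB7 had 3 kept probe sets. The one of these with the highest mean, 204779_s_at, had 539.2, 301.6 and 269.1 after 8-Br-cAMP and 508.1, 407.8 and 376.5 in controls (difference -0.28, adjusted p = 0.512), and the 3 ranged from -0.85 to -0.28. Treated array 1, with the actin ratio of 38.8, had the highest signal of the treated group for every kept probe set of HOXB5, HOXB6 and HOXB7, for all 6 kept HOXC genes and for HOXD9, and the lowest for HOXB2, HOXB9, HOXD1 and HOXD4.

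HOXB2, a gene of the hindbrain and of facial nerve development, had 415.4, 466 and 549.6 after 8-Br-cAMP, against 412.5, 357.7 and 374.6 in controls, so that the lowest treated array only just cleared the highest control. The difference was 0.31 (95% interval -0.19 to 0.82, limma paired adjusted p = 0.445), and its sign turned to -0.06 when arrays were scaled on hybridisation spike-ins. HOXB9 had 66, 99.9 and 72.5 after 8-Br-cAMP and 68.2, 91.2 and 104.4 in controls, with a difference of -0.15 that became 0.08 with a common median.

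**Figure D2:**
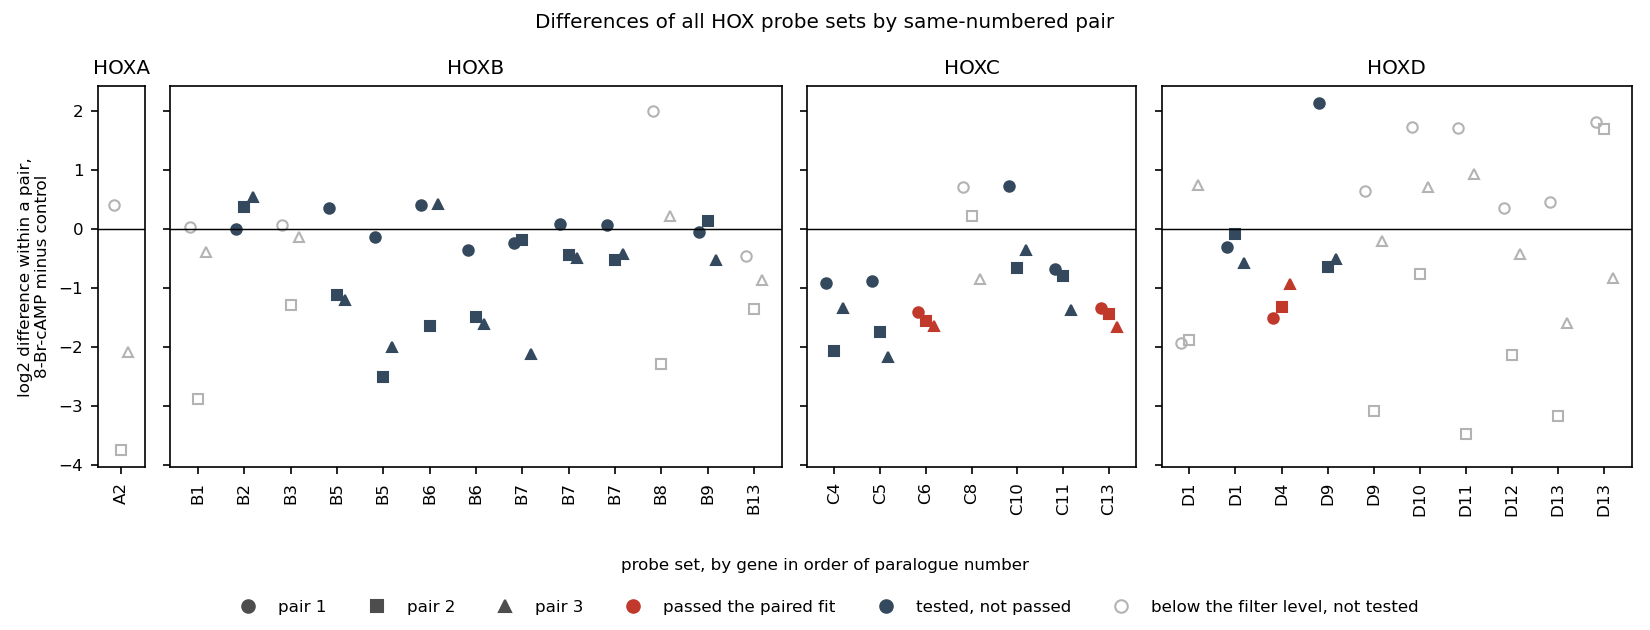
Log2 difference (8-Br-cAMP minus control) within each same-numbered pair for all 31 HOX probe sets, by cluster and in order of paralogue number; red marks the probe sets that passed the paired fit, dark blue those tested without passing, open grey those below the filter level. HOXC6, HOXC13 and HOXD4 keep all 3 pairs between -1.66 and -0.93, whereas HOXB5 on 205601_s_at spreads from -0.14 in pair 1 to -2.50 in pair 2 and HOXB6 on 205366_s_at from -0.36 in pair 1 to -1.61 in pair 3.

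The other 13 HOX probe sets lay below the filter level and were not tested. They belong to HOXA2, HOXB1, HOXB3, HOXB8, HOXB13, HOXC8, HOXD10, HOXD11, HOXD12 and HOXD13, and to a further probe set each of HOXD1 and HOXD9, with HOXD13 on 2. HOXA2, a gene of the second pharyngeal arch, had 4, 2.3 and 5.5 after 8-Br-cAMP and 3, 30.8 and 23.3 in controls. HOXB13, a gene of prostate and tail, had 4, 3.8 and 2.8 after 8-Br-cAMP and 5.5, 9.7 and 5.1 in controls, which did not overlap but were far below the level at which signals here are read. HOXD10, HOXD12 and HOXD13 on 207397_s_at did not exceed 4.8 on any array. Just outside the filter, HOXB1 had 82.8, 11.2 and 30.7 after 8-Br-cAMP and 80.4, 82.8 and 40.3 in controls, and just inside it HOXB6 on 205365_at had the values above. Low signals at these probe sets show no order between the genes and do not show that a transcript was absent.

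Described by paralogue number, the 2 probe sets of position 4 differed by a median of -1.34, the 3 of position 5 by -1.55 and the 3 of position 6 by -1.15. The 3 probe sets of positions 5 and 6 come from 2 genes each. By pair, the medians were -0.14, -1.74 and -2.0 at position 5 and -0.36, -1.56 and -1.61 at position 6. The 3 probe sets of position 7 had a median of -0.29, and position 9 had 0.09 over its 2 kept probe sets. Positions 1, 2, 10, 11 and 13 had 1 kept probe set each, from HOXD1 (-0.31), HOXB2 (0.31), HOXC10 (-0.09), HOXC11 (-0.95) and HOXC13 (-1.48). Over all 31 HOX probe sets the median was -0.73, and over the 18 kept it was -0.75, beside -0.13 over all kept probe sets.

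Among the 18 kept HOX probe sets all treated arrays lay below all controls in 7 (HOXB5 on 205601_s_at, HOXC4, HOXC5, HOXC6, HOXC11, HOXC13 and HOXD4), beside 12.5% of all probe sets, and in 1 above (HOXB2), beside 6.02%. All 3 pairs were lower in 10 and higher in 1, as against 3847 and 2035 of the 13329. The series' own selection asked for a 2-fold mean change with p below 0.05. With limma's unadjusted p and no block it took in 6, all lower (HOXB5 on 205601_s_at, HOXC4, HOXC5, HOXC6, HOXC13 and HOXD4), beside 4.1% lower over all probe sets. With both number 1 arrays left out, 11 HOX probe sets passed as lower and 1, HOXB2, as higher, beside 18.7% and 12.1% of all. That fit rests on 2 arrays a group.

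Among the TALE-class partners, MEIS1 also fell in the paired fit. MEIS1, a DNA-binding partner of HOX and PBX proteins, had 180.2, 147.7 and 148.3 after 8-Br-cAMP, against 555.8, 307.6 and 321.9 in controls. The groups were far apart, and control 1 was the highest array. The log2 difference was -1.27 (95% interval -1.81 to -0.72, limma paired adjusted p = 0.0435; 0.192 with no block), with pair differences of -1.62, -1.06 and -1.12. It passed in 7 of the 10 settings with the block, and the call was lost after quantile normalization (adjusted p = 0.0713), with a common median (0.126), without the intensity trend (0.0823), and when pair 2 (0.0621) or pair 3 (0.109) was left out. Of the 8 listed TALE-class genes above the filter level, TGIF1 and TGIF2 among them, 1 fell, 0 rose and 7 did not pass. Over all 7927 genes, 3.68% passed the paired fit. MEIS2 had 824.8, 731.3 and 778.6 after 8-Br-cAMP and 1361.7, 1114.7 and 1207.3 in controls, without overlap (difference -0.65, adjusted p = 0.108). TGIF1, a TALE-class repressor, had a difference of 1.46 (adjusted p = 0.0784), with 0.42, 1.94 and 2.01 in pairs 1, 2 and 3. PKNOX1, which encodes PREP1, had a difference of 0.99 (95% interval 0.21 to 1.78, adjusted p = 0.155) and was higher in all 3 pairs. PBX2 (0.59), PBX3 (-0.52), PKNOX2 (-0.60) and TGIF2 (-0.29) had intervals that include 0.

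**Figure D3:**
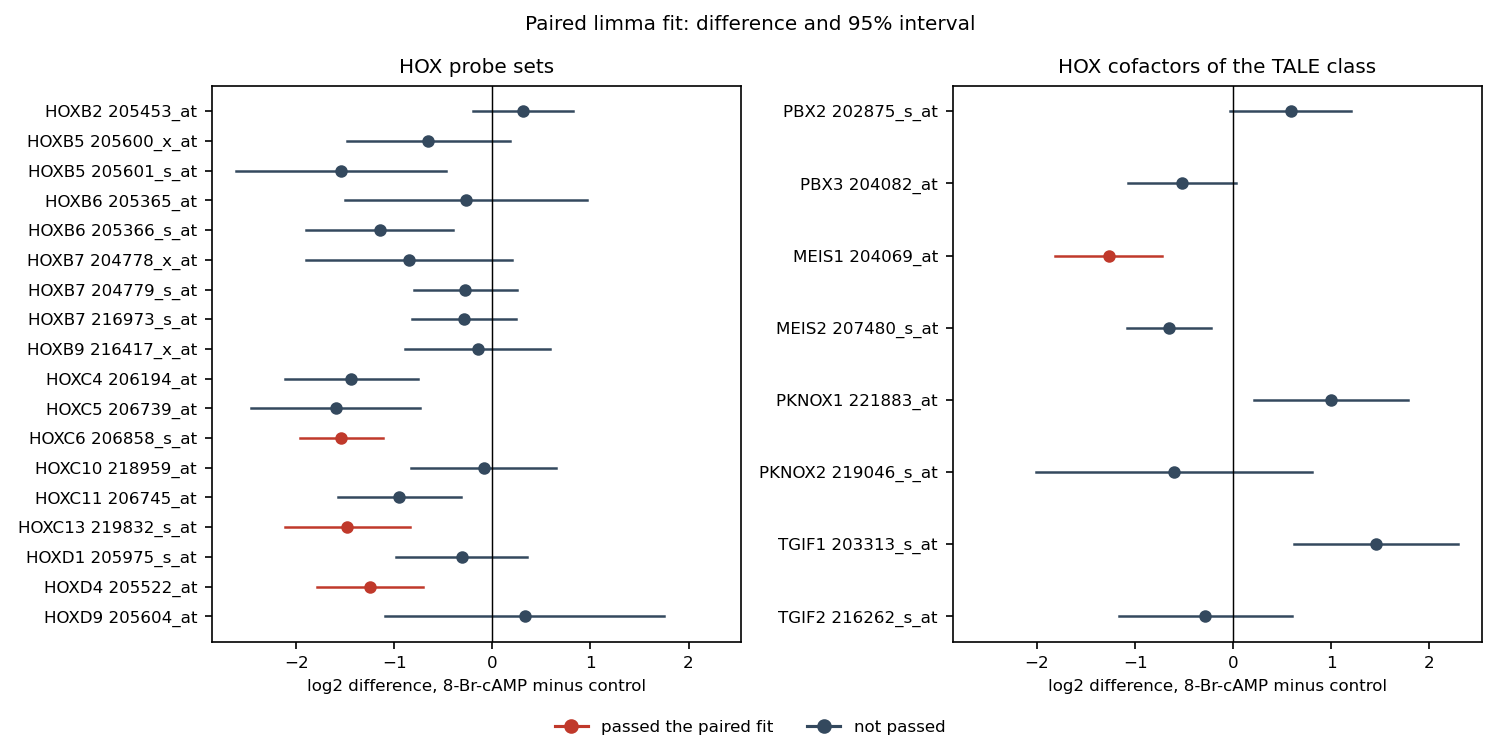
Log2 differences (8-Br-cAMP minus control) with 95% intervals from the paired limma fit. The 18 kept HOX probe sets are at the left and 8 TALE-class genes, TGIF1 and TGIF2 among them, at the right. Red marks those that passed at an adjusted p under 0.05. HOXC6 (-1.54), HOXC13 (-1.48), HOXD4 (-1.25) and MEIS1 (-1.27) passed, and the intervals of HOXB2, HOXB7, HOXB9, HOXC10, HOXD1, HOXD9 and 1 probe set each of HOXB5 and HOXB6 include 0.

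Of the upstream regulators of HOX transcription 0 passed the paired fit in any list: 0 of 9 kept retinoid genes, 0 of 15 Polycomb genes and 0 of 11 Trithorax and MLL genes, beside 3.68% of all genes. Counts this small are near that share. In the list of caudal, cluster-linked and other homeobox regulators only GMNN was kept, and it did not pass. GMNN is not itself a homeobox gene, so no homeobox gene of that list was tested. Retinoic acid is a known inducer of HOX genes. Its receptor gene RARG had 13.7, 49.9 and 16.5 after 8-Br-cAMP and 95.8, 106.2 and 89.4 in controls (difference -2.11, limma paired adjusted p = 0.0744), and ALDH1A2, which makes retinoic acid, had 5662.1, 3908.2 and 4036.1 after 8-Br-cAMP and 4465.9, 1087.8 and 1316.8 in controls (1.27, adjusted p = 0.0794). The RARG signals on 8-Br-cAMP arrays 1 and 3 lay below the filter level, so its fold is imprecise, and 1 of its 3 probe sets was kept. The Polycomb gene PHC1 differed by -1.54 (adjusted p = 0.0891) and PCGF2 by -0.78 (0.248). In pairs 1, 2 and 3 the differences were -2.66, -0.94 and -1.02 for PHC1 and 0.10, -1.02 and -1.40 for PCGF2. The MLL partners MEN1 and PSIP1 differed by -0.67 (0.147) and -0.99 (0.156), with pair differences of -0.37, -0.72 and -0.90 for MEN1 and -1.99, -0.62 and -0.37 for PSIP1. Transcripts of EZH2, SUZ12 and EED, the core of the complex that marks silent HOX genes, differed by -0.13, 0.08 and 0.02. By pair, in order 1, 2 and 3, EZH2 gave -0.87, 0.39 and 0.08 and SUZ12 gave -0.42, 0.50 and 0.17. EED gave -0.02, 0.18 and -0.11, so pair 1 was the lowest for EZH2 and SUZ12 and pair 3 for EED. NR5A1 had 90.9, 115.2 and 58.6 after 8-Br-cAMP and 84.1, 106 and 94.5 in controls (-0.15, adjusted p = 0.821).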

How the data were processed

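Each array gave 1 intensity per probe set, and these intensities are on a linear scale as deposited. GCOS 1.3 produced them, per the submitters' processing notes. Trimmed means of 250.001 to 250.828 showed that arrays were already scaled, so none was rescaled. After removal of 62 array controls, intensities were taken to log2, and probe sets were kept where the mean exceeded the 40th percentile, 5.51 in log2 units. The whole table was fitted with limma 3.58.1 in R 4.3.3 (eBayes with an intensity trend, two-sided, Benjamini-Hochberg over 13329 probe sets). The main design had no block, and its alternative used sample numbers as a block. That pairing is not given by the labels, and the correlated deviations (0.603, 0.378 and 0.538) set only number 1 apart. The deviations do not tell pairs 2 and 3 from each other. The fits were also run on simulated data with planted changes larger than the HOX differences called here. That run took the pairing as given, so it tested neither the pairing nor changes of this size. Members and gene lists were chosen with earlier results of these data known. Genes given array by array were those called and, per cluster, the 2 with the highest mean and the 2 with the largest difference. From the lists, genes were named if called or among the 2 with the smallest p. EZH2, SUZ12, EED, PBX2, PBX3, PKNOX1, PKNOX2, TGIF2, TEK, CDH5, HNRNPA1, COPZ1 and the members HOXB1, HOXB9, HOXB13, HOXC4, HOXC8 and HOXC11 were added after their values were seen. The probe set with the highest mean stood for a list gene. Alternatives covered scaling, filter, floor, pseudocount, variance model, block and arrays left out. The number of arrays limits the precision.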

Additional observations from a re-analysis of the deposited data

How the results depend on the processing

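The combinations with the block, the spike-in scale, the 1 probe set per gene rule with the block and the removal of both number 1 arrays were chosen after seeing the data. HOX probe sets called in any setting were lower after 8-Br-cAMP, except HOXB2 with the number 1 arrays left out. Without a block and with all arrays, 0 HOX probe sets were called in any setting. Over all probe sets that design gave 17 calls after quantile normalization, 17 at a common median, 28 with the floor, 28 with the pseudocount, 14 on the spike-in scale, 18 under the stricter filter and 0 otherwise. With the replicate block the count of HOX probe sets, equal to that of genes, was 3 of 428 in all. It was 1 of 337 with quantile normalization, 1 of 142 at a common median, 4 of 481 with the floor, 4 of 548 with the pseudocount, 8 of 1064 on the spike-in scale, 2 of 406 without filter, 3 of 440 under the stricter filter, 0 of 81 without the trend and 3 of 408 with robust variances. The highest-mean probe set per gene gave 4 genes with the block, and the number called over all genes in that setting is not given. Of the list genes 1 (MEIS1) was called with the block, as with robust variances, 0 with the block after quantile normalization, at a common median or without the trend, 2 with floor, pseudocount, no filter or the stricter filter, and 8 on the spike-in scale. Over all probe sets the median difference, -0.13 here, became -0.03 by quantile normalization and 0.09 by a common median, while spike-ins gave -0.50. Paired calls numbered 207 higher and 221 lower here, 103 and 39 by a common median, and 103 and 961 by spike-ins.

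With single arrays, pairs or both number 1 arrays left out, HOX probe sets called ran from 0 to 14, genes from 0 to 11, all probe sets from 0 to 4680, list genes from 0 to 24, and HOX probe sets without overlap from 8 to 15. Without 8-Br-cAMP 1 and no block, 5 HOX probe sets passed of 285, and 14 had no overlap. With fewer arrays, overlap between groups is rarer for any probe set. The share of all probe sets without overlap is not given for these settings, so nothing is read from the counts without overlap. Without control 1, 0 of 58 passed. With both number 1 arrays left out and no block, 12 HOX probe sets for 10 genes passed of 4103, with 21 list genes. The paired fit called 14 for 11 genes without pair 1, and HOXC6 alone without pair 2 (342 in all) or pair 3 (160 higher and 135 lower in all). The sign turned for HOXB2 (-0.0566) and HOXD9 (-0.0406) on the spike-in scale. It turned for HOXB9 (0.0613 and 0.0783) and HOXC10 (0.0772 and 0.136) after quantile normalization and at a common median, with or without the block. With arrays or pairs left out, differences ran from -0.725 to 0.417 for HOXB6 on 205365_at (0.0769 without 8-Br-cAMP 2), from -0.324 to 0.0421 for HOXB9, from -0.502 to 0.195 for HOXC10 (-0.438 without 8-Br-cAMP 1, 0.0855 without 8-Br-cAMP 3, 0.0389 without pair 3) and from -0.571 to 0.818 for HOXD9 (-0.283 without control 1, 0.768 without control 2). Of these, HOXC10 was called in 1 setting, the paired fit without pair 1 (-0.502, adjusted p = 0.0443), and HOXB2 with pair 1 or both number 1 arrays left out (0.467). The cause was not tested.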

Other observations

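Genes that flank the HOX clusters were followed as well. Of 20 measured flanking genes 0 passed the paired fit, near the 3.68% of all genes that did, and 11 lay lower and 9 higher, and the median log2 difference was -0.07. Near the HOXC cluster, CBX5, which encodes a heterochromatin protein, had 625.2, 599.1 and 649.5 after 8-Br-cAMP against 1265.1, 1105 and 1194 in controls, without overlap (difference -0.93, limma paired adjusted p = 0.0513). Its relative CBX1, near the HOXB cluster, had 437.3, 543.1 and 608.5 after 8-Br-cAMP against 919.1, 885.3 and 1019.7 in controls (-0.84, adjusted p = 0.0744). HNRNPA1 and COPZ1, also near HOXC, differed by 0.01 and -0.33. Whether flanking and cluster genes differ from each other was not tested.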
